A study of Mus musculus with 6 samples.

Results

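The antiviral interferon-stimulated genes described here are Ifit1, Ifit2, Ifit3, Isg15, Rsad2, Oasl2, Irf7, Usp18, Bst2 and Stat2. They are 10 of the 45706 genes in the deposited table, chosen by gene symbol and not by their measured values, and all 10 passed the filter on low counts, Rsad2 only through its DKK1 libraries. RNA was sequenced from lung fibroblasts of wild-type mice, grown out of digested lung tissue for 7 days and then purified by a step that the labels do not describe. The control group was 3 samples without added DKK1, and the other group was 3 samples given 30 ng/ml of recombinant mouse DKK1, for 24 hours. DKK1 (Dickkopf-1), which cells secrete, blocks canonical Wnt signalling by occupying the co-receptors LRP5 and LRP6. The age and strain of the mice, and whether the replicates came from separate animals, are not given in the sources used here, so a p-value measures only the spread between these samples. No interferon, virus or nucleic acid was added to any sample, so the control levels are those of unstimulated cultures.

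Type I interferons bind a receptor made of IFNAR1 and IFNAR2. The kinases JAK1 and TYK2 then phosphorylate STAT proteins, STAT2 among them, which join IRF9 in a complex called ISGF3. ISGF3 enters the nucleus and binds interferon-stimulated response elements near the start sites of antiviral genes. Fibroblasts are a classic responder cell: they keep a low basal level of these genes and raise them strongly when they meet interferon. Some of the same genes, Ifit2 and Isg15 among them, can also be switched on by IRF3 without interferon.

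The element's core, GAAANNGAAA on one strand or TTTCNNTTTC on the other, was searched in the 250 bases before each start site in the RefSeq promoter table (GRCm38.p6), with overlapping matches counted. The table held 9 of the 10 genes, the other being Usp18. The core was found in 6 of those 9 genes (66.7%), against 936 of 27025 genes in the whole table (3.46%) and 19 of 69 genes of a wider interferon list (27.5%). Ifit2, with a pair of start sites, Oasl2 and Irf7 had no match, which says only that these letters are not in those windows. Across the roles of that wider list the share ran from 0% to 100%, with a match in 3 of 3 other IFIT genes and in 5 of 9 type I interferon ligands. The core is thus found in other interferon genes too, and the 10 genes were chosen as interferon targets, so their share is a description only. The 6 windows with a match are shown to place the element in them. Each is a stretch of 64 bases on the strand of its gene, with the matched letters in capitals.
Ifit1, chr19:34640770-34640833, plus strand: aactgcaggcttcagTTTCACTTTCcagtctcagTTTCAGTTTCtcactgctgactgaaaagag
Ifit3, chr19:34583358-34583421, plus strand: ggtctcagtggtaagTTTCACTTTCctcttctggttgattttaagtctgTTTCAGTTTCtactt
Isg15, chr4:156200848-156200911, minus strand: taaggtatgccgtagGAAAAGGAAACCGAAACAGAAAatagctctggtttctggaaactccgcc
Rsad2, chr12:26456524-26456587, minus strand: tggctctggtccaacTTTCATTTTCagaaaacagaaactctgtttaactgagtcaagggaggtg
Bst2, chr8:71537554-71537617, minus strand: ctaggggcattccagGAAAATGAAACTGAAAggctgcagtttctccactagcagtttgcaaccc
Stat2, chr10:128270261-128270324, plus strand: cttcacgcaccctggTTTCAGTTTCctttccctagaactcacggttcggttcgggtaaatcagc

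Ifit1 and Ifit3 carried the same pair of matches, TTTCACTTTC followed by TTTCAGTTTC. The first bases of the matches lay 104 and 85 bases before the start in Ifit1 and 156 and 122 bases before it in Ifit3. Isg15 had 3 overlapping matches, which began 78, 72 and 66 bases before the start. Bst2 had a pair of overlapping matches, at 130 and 124 bases. Rsad2 and Stat2 had 1 match each, at 120 and 222 bases. A match is a description of the sequence; binding was not measured.

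Library totals lay between 22565917 and 34727102 counts, so 3 counts, taken as the detection floor, equal 0.0864 to 0.133 CPM (counts scaled to a common library total). The floor allows for counting error alone, since PCR copies of 1 molecule cannot be recognised without molecular identifiers. Fibroblast markers were abundant, as the label says: the summed level of 9 fibroblast genes was 13366 to 15063 CPM in control and 12590 to 14255 CPM in DKK1 libraries. Markers of other cells were present at lower levels. The 11 macrophage and leukocyte genes were all detected and summed to 436 to 880 CPM in control and 476 to 913 CPM in DKK1 libraries, mostly Lyz2. Epithelial, endothelial, mesothelial and macrophage sums were each highest in replicate 3 of both groups. Of the plasmacytoid dendritic cell list, which marks a blood cell known for making interferon, Klk1 was at 0, Ccr9 had at most 1 count and Siglech at most 2 counts, while Pacsin1 was at 0.746 ± 0.335 CPM in control and 0.870 ± 0.266 CPM with DKK1, and Cox6a2 at 0.428 ± 0.244 and 0.389 ± 0.170 CPM (SD, n = 3 each). Of 7 T and B lymphocyte genes, Cd3e and Cd3g were at 0 and the whole list summed to at most 0.349 CPM. Cd4 was the gene of that list whose groups did not overlap, at 0.0973 ± 0.0317 CPM in control and 0.176 ± 0.0388 CPM with DKK1 (SD, n = 3 each). No library held more than 6 Cd4 counts, its control mean lay within the range of the floor, and no gene of that list was tested. Among the 6 plasmacytoid dendritic cell genes, 1 had groups that did not overlap, lower with DKK1. Groups did not overlap, in either direction, for 16.5% of all tested genes.

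Usp18 and Rsad2 had the highest estimates of the 10 antiviral genes, 1.71-fold and 1.72-fold. Of the 10, Usp18 passed the test in edgeR with the replicate block, and Rsad2 and the other 8 passed in neither fit. None of the 10 passed an adjusted p of 0.05 in the edgeR quasi-likelihood test without a replicate block, which called 131 of 14635 tested genes (0.895%). Leaving aside Rsad2, which met the filter only through its DKK1 libraries, 1 gene, Usp18, had an unadjusted p under 0.05 there, as did 10.6% of all tested genes; DESeq2 and limma-voom also called none of the 10. With the replicate number as a block, which called 9.42% of tested genes in either direction and 4.96% as higher, 1 of the 10 was called: Usp18, higher with DKK1. Without Rsad2, the estimated log2 fold change was above 0 in 7 genes and below 0 in 2, with a median of 0.13 (also 0.13 with it), beside a median of -0.00091 and 49.6% above 0 over all tested genes. Leaving out control replicate 1 moved the median of the 10 genes to 0.26, and leaving out DKK1 replicate 1 moved it to -0.0097.

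**Figure D1:**
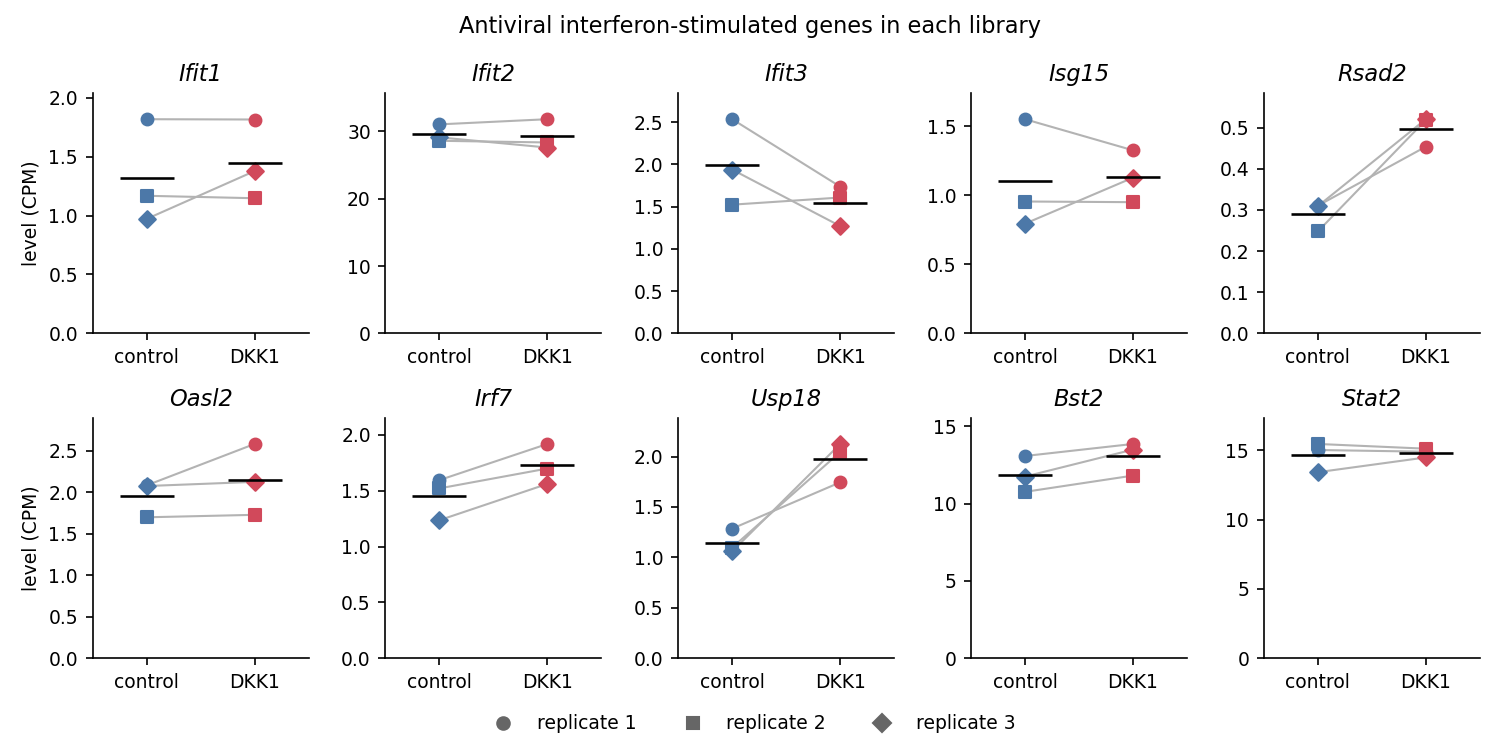
Level in CPM of each of the 10 genes (vertical axis, starting at 0, scaled per gene) in the 3 control and 3 DKK1 libraries; marker shape gives the replicate number, grey lines join libraries with the same number, and black bars are group means. Only in Rsad2 and Usp18 do the 3 DKK1 libraries lie above all 3 control libraries. This was so for 9.4% of all tested genes, and Rsad2 met the filter on low counts only through its DKK1 libraries.

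Usp18 (ENSMUSG00000030107, chr6:121245906-121270917, plus strand) encodes the protease that removes ISG15 from proteins and that also binds IFNAR2 and damps interferon signalling. Its level was 1.29, 1.10 and 1.06 CPM in control replicates 1 to 3 and 1.74, 2.04 and 2.13 CPM in DKK1 replicates 1 to 3, from 24 to 31 counts in control and 49 to 71 counts in DKK1 libraries. Every DKK1 library was above every control library, and the DKK1 library was the higher one in all 3 same-numbered pairs. Groups that do not overlap, with DKK1 higher, were seen in 9.4% of tested genes.
With DKK1 the mean rose to 1.97 ± 0.200 CPM from 1.15 ± 0.121 CPM (SD, n = 3 each), a rise of 0.77 on the log2 scale (SE 0.22 in edgeR with the replicate block, adjusted p = 0.0444), or 1.71-fold with a 95% interval of 1.23 to 2.38. Without the block the change was the same size (SE 0.20), with an unadjusted p of 0.00447 and an adjusted p of 0.172. The blocked call was lost without replicate 2 of both groups (edgeR adjusted p = 0.265) or without replicate 3 of both groups (adjusted p = 0.192), and kept without replicate 1 (adjusted p = 0.0216). DESeq2 gave an adjusted p of 0.380 without and 0.691 with the block, so the call rests on the blocked edgeR fit. An exon of Usp18 overlaps the gene Gm44148 on the other strand, and whether the counting used strand is not given in the sources used here. The Usp18 counts were whole in all 6 libraries, and RSEM gives fractional counts where it divides reads between genes. Gm44148 was not found among the deposited genes, so whole counts cannot tell whether its reads were counted as Usp18.

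Rsad2 (ENSMUSG00000020641, chr12:26442746-26456452, minus strand) encodes viperin, an enzyme that makes a nucleotide analogue which stops viral RNA synthesis. It was the scarcest of the 10 genes, with 7 counts in each control library and 13, 18 and 12 counts in DKK1 replicates 1 to 3. These are 0.31, 0.25 and 0.31 CPM in control and 0.45, 0.52 and 0.52 CPM in DKK1 libraries, so the groups did not overlap.
The mean was 0.289 ± 0.0358 CPM in control and 0.497 ± 0.0380 CPM with DKK1 (SD, n = 3 each), a difference of 0.78 on the log2 scale (SE 0.32 in edgeR, adjusted p = 0.423, unadjusted p = 0.0382). With the block the adjusted p was 0.293. The filter asked for 3 libraries of at least 0.39 CPM, which the 3 DKK1 libraries reached and no control library did. Rsad2 was thus tested only because it was high with DKK1, and neither its p nor its lack of overlap is support for a difference. With no filter its adjusted p was 0.775. The estimate was as large as that of Usp18, but its interval, 1.04-fold to 2.84-fold without the block, was wider at this count.

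Ifit2 (ENSMUSG00000045932, chr19:34550694-34576419, plus strand) encodes a protein of the IFIT family, whose members bind viral RNA and block its translation. It had the highest count of the 10 genes, at 31.0, 28.6 and 29.1 CPM in control and 31.8, 28.3 and 27.6 CPM in DKK1 libraries. The groups overlapped fully, and the means of 29.6 ± 1.29 and 29.2 ± 2.24 CPM (SD, n = 3 each) differed by less than either SD. With 636 to 984 counts per library the log2 fold change of -0.02 was measured closely (SE 0.07, edgeR adjusted p = 0.963), with a 95% interval of 0.889-fold to 1.10-fold.

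Ifit1 (ENSMUSG00000034459, chr19:34640871-34650009, plus strand) encodes a sensor of RNA that lacks the cap mark of host messages. Its level was 1.82, 1.17 and 0.97 CPM in control and 1.81, 1.15 and 1.38 CPM in DKK1 libraries. Replicates 1 and 2 were nearly equal between the groups, and replicate 3 alone was higher with DKK1. The log2 difference was 0.13 (SE 0.30 in edgeR, adjusted p = 0.937) with an interval up to 1.76-fold.
Ifit3 (ENSMUSG00000074896, chr19:34583531-34588731, plus strand) encodes another protein of the IFIT family. It stood at 2.53, 1.52 and 1.94 CPM in control and 1.74, 1.61 and 1.27 CPM in DKK1 libraries, with overlapping groups. Its log2 fold change of -0.36 was the lowest of the 10 (SE 0.25, edgeR adjusted p = 0.681). It was -0.16 without control replicate 1 and -0.53 without control replicate 2.

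The Ifit3 value is uncertain for another reason. Of its 50-base stretches, 51.2% also occur in Ifit3b, a near copy, and 44.5% of those of Ifit3b occur in Ifit3; both genes had fractional counts in all 6 libraries, as RSEM gives where it divides reads among genes. Summing Ifit3 and Ifit3b before the test gave a log2 difference of -0.33 (edgeR with the block, -0.32, adjusted p = 0.377). Ifit1 shares 7.06% of its stretches with Ifit1bl2 and 0.614% with Ifit1bl1. Over all 6 IFIT genes summed, the log2 fold change was -0.03 (with the block, adjusted p = 0.724). The other family members were scarce, at 0.569 ± 0.115 CPM for Ifit1bl1, 0.360 ± 0.0664 CPM for Ifit1bl2 and 0.455 ± 0.0657 CPM for Ifit3b in control (SD, n = 3 each). None of these 3 passed the test in either fit.

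Isg15 (ENSMUSG00000035692, chr4:156199424-156200818, minus strand) encodes a ubiquitin-like protein that is attached to other proteins, the modification that USP18 removes. Its level was 1.55, 0.96 and 0.79 CPM in control and 1.33, 0.95 and 1.13 CPM in DKK1 libraries, from 18 to 38 counts. The DKK1 libraries lay inside the control range, and the log2 difference was 0.04 (SE 0.30 in edgeR, adjusted p = 0.986).
Oasl2 (ENSMUSG00000029561, chr5:114896936-114912234, plus strand) encodes a relative of the oligoadenylate synthetases. It stood at 2.08, 1.70 and 2.07 CPM in control and 2.58, 1.73 and 2.13 CPM in DKK1 libraries. DKK1 replicate 1 was the highest and the other values were mixed between the groups. The log2 difference was 0.13 (SE 0.21 in edgeR, adjusted p = 0.897).

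Bst2 (ENSMUSG00000046718, chr8:71534255-71537456, minus strand) encodes tetherin, which holds budding virus particles on the cell surface. Its level was 13.1, 10.8 and 11.7 CPM in control and 13.9, 11.8 and 13.5 CPM in DKK1 libraries. The groups overlapped, although the DKK1 library was the higher one in each same-numbered pair. The log2 difference was 0.13 (SE 0.10 in edgeR, adjusted p = 0.714; with the block, adjusted p = 0.338), with an interval up to 1.28-fold. In mice Bst2 also marks plasmacytoid dendritic cells, whose other listed markers summed to at most 1.91 CPM.

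Irf7 and Stat2 are the regulators in the group. Irf7 (ENSMUSG00000025498, chr7:141262706-141266481, minus strand), the factor that amplifies interferon production, stood at 1.60, 1.52 and 1.24 CPM in control and 1.92, 1.70 and 1.56 CPM in DKK1 libraries. Its groups overlapped by a single value, with a difference of 0.25 on the log2 scale (SE 0.20 in edgeR, adjusted p = 0.752) and an interval up to 1.64-fold. An exon of Irf7 overlaps Phrf1 on the other strand, a gene at 98.2 ± 0.841 CPM in control and 99.7 ± 3.16 CPM with DKK1 (SD, n = 3 each), so without strand a small share of Phrf1 reads could not be told apart from Irf7.
Stat2 (ENSMUSG00000040033, chr10:128270559-128292849, plus strand), a subunit of ISGF3, stood at 15.0, 15.5 and 13.4 CPM in control and 14.9, 15.1 and 14.5 CPM in DKK1 libraries. The DKK1 libraries lay inside the control range. The log2 difference was 0.01 (SE 0.08 in edgeR, adjusted p = 0.981), with an interval of 0.895-fold to 1.14-fold.

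**Figure D2:**
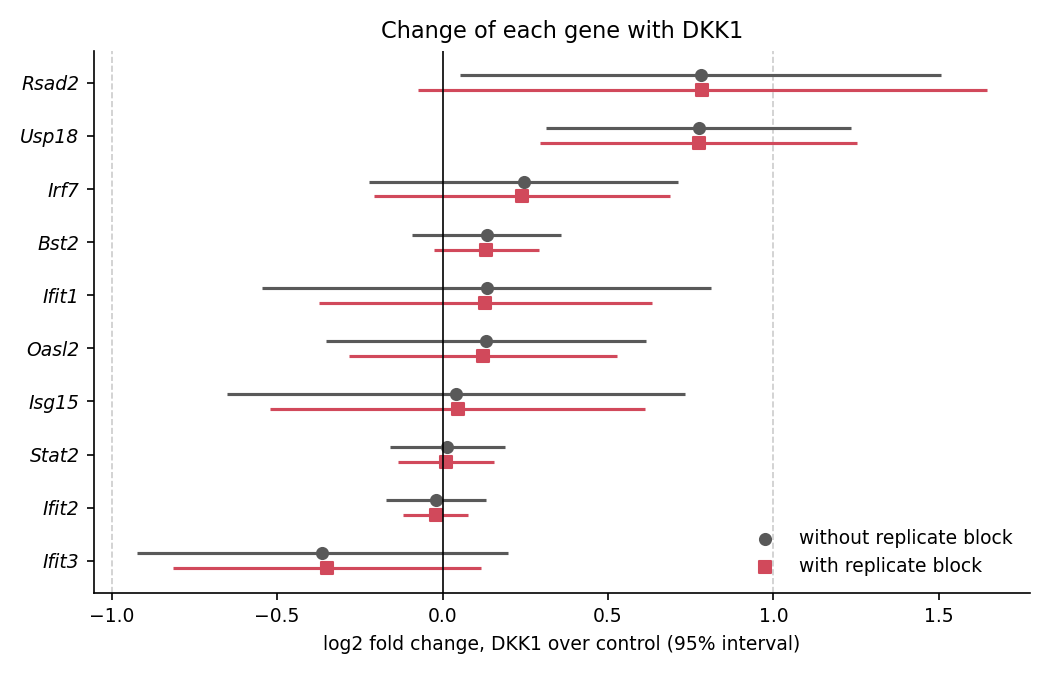
Estimated log2 fold change of each gene, DKK1 over control (horizontal axis), from edgeR without (grey circles) and with (red squares) the replicate block; lines are 95% intervals and dashed lines mark 2-fold changes. Estimates run from -0.36 for Ifit3 to 0.78 for Rsad2 without the block and from -0.35 to 0.79 for the same genes with it. The intervals are not adjusted for the number of genes tested. That of Usp18 lies above 0 in both fits, though only the fit with the block called it. That of Rsad2, which neither fit called, lies above 0 only without the block.

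The DKK1 library was the higher one in all 3 same-numbered pairs for Oasl2, Irf7, Usp18 and Bst2, and for Rsad2 with the limit given above, which was the case for 22.3% of all tested genes. In the unblocked fit the 95% intervals of Ifit1, Ifit2, Ifit3, Isg15, Oasl2, Irf7, Bst2 and Stat2 all had upper bounds of 1.76-fold or less. The lower bounds of those 8 genes were 0.527-fold or more, the lowest being that of Ifit3. A p that misses the threshold does not show that these genes were equal in both groups; the intervals give the size of change that remains possible.

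Levels of different genes were compared per kb of the longest protein-coding transcript in the annotation. In control cells Bst2 was highest, at 15.0 CPM per kb, followed by Ifit2 at 7.74, Stat2 at 3.33, Isg15 at 1.46 and Ifit3 at 1.15 CPM per kb. Irf7, Usp18 and Oasl2 came next and were close together, at 0.649, 0.648 and 0.625 CPM per kb, then Ifit1 at 0.496 and Rsad2 at 0.0764 CPM per kb. The libraries of Isg15 and Ifit3 overlapped in range, as did those of Irf7 and Usp18, of Usp18 and Oasl2, and of Oasl2 and Ifit1; the other neighbours in this order did not. Ifit2, Ifit3 and Ifit1 lie in that order on chromosome 19, with Ifit1bl1, Ifit3b and Ifit1bl2 between Ifit3 and Ifit1, and per kb Ifit2 was above Ifit1 and Ifit3 in every control library.

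**Figure D3:**
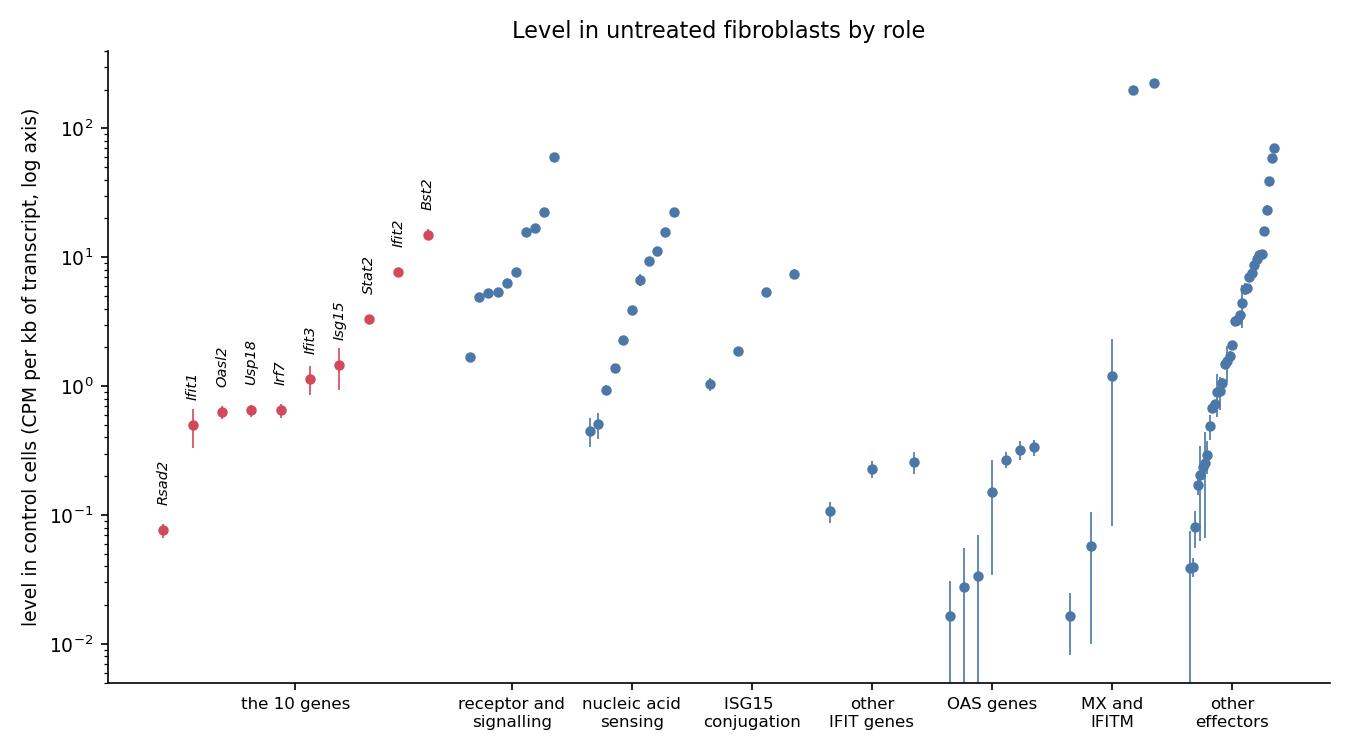
Mean level in control cells, in CPM per kb of the longest coding transcript (log axis), for the 10 genes (red, named) and for the genes of a wider interferon list by role (blue, 1 gene not drawn); bars are SD over 3 libraries, drawn down to the edge of the plot where they reach below it, and the 9 ligand genes, at 0, are not drawn. The 10 genes run from 0.0764 for Rsad2 to 15.0 for Bst2, and their median of 0.897 lies below the 6.98 of the receptor and signalling genes.

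Replicate 1 was the highest library of its group for most of these genes. Control replicate 1 was the highest control library for 9 of the 10, all but Stat2. For Rsad2, with 7 counts in each control library, and Oasl2, with 47, 48 and 47 counts, that rank came only from the library totals. For Usp18 and Irf7 the SD over control libraries was 10.5% and 13.1% of the mean. Counting error alone gives 18.9% and 16.7%, so the rank of these genes lies within counting error. DKK1 replicate 1 was the highest DKK1 library for 7, Ifit1, Ifit2, Ifit3, Isg15, Oasl2, Irf7 and Bst2. The mean z-score of log2 CPM over the 10 genes was 0.54, -0.59 and -0.81 in control replicates 1 to 3 and 0.87, -0.05 and 0.04 in DKK1 replicates 1 to 3. The part of other cell types in this pattern was not tested. Ifit1 and Isg15 moved together most closely, with a Pearson r of 0.98 between their deviations from the group means over 6 libraries, the highest of 45 pairs and a description only. The lowest r of these pairs was -0.53, between Rsad2 and Stat2. Usp18 and Rsad2 did not take part in the pattern in DKK1 libraries, where both were lowest in replicate 1.

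Over the 6 libraries, the genes outside the group whose log2 CPM followed its mean z-score most closely, out of 13011 tested genes averaging 1 CPM or more, were Mmp10 (r = 0.986), Apba1 (0.983), Fbxo38 (0.982), Slc25a23 (0.982), Brf2 (0.981) and Ier5 (0.980). None is on the wider interferon list. Mmp10, a matrix metalloproteinase, stood at 93.3, 51.0 and 47.6 CPM in control and 115, 60.8 and 68.8 CPM in DKK1 libraries, with replicate 1 the highest in each group. With 6 libraries and this many candidates, such values describe the profile and carry no test.

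The rest of the pathway was examined on a list of 85 genes in 8 roles, of which 67 were tested. The unblocked edgeR fit called none; an unadjusted p under 0.05 was reached there by 13 genes (19.4% of those tested, beside 10.6% of all genes), and 12 of them were higher (17.9%, beside 5.68%). DESeq2 called 1. With the block 8 were called, which is 11.9% of those tested beside 9.42% of all genes. Of these, 7 were higher, or 10.4% beside 4.96% of all genes, and 1 was lower. The median log2 fold change was 0.06, with 46 genes above 0 and 21 below in the unblocked fit.

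None of the 9 type I interferon genes examined was detected. Ifnb1, Ifna1, Ifna2, Ifna4, Ifna5, Ifna11, Ifna13, Ifne and Ifnk had 0 counts in all 6 libraries, which allows up to 0.0864 to 0.133 CPM per library. In bulk RNA, fewer cells of a type and less RNA per cell cannot be told apart, so a rare producing cell is not addressed by these zeros.

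Both receptor chains were present. Ifnar2 (ENSMUSG00000022971), the high-affinity chain and the binding partner of USP18, stood at 52.6, 51.7 and 50.7 CPM in control and 70.4, 67.4 and 58.8 CPM in DKK1 libraries. All DKK1 libraries were above all control libraries. With the block it rose by 0.34 on the log2 scale (SE 0.04 in edgeR, adjusted p = 0.000114); without the block the adjusted p was 0.0685, and it was past the threshold in 10 of 22 alternatives, including DESeq2 (adjusted p = 0.00268) and edgeR without DKK1 replicate 3 (adjusted p = 0.00872). The annotation has Gm21970 overlapping Ifnar2 on the same strand, and its counts were whole in all 6 libraries.
Ifnar1, the other chain, was at 87.8 ± 4.53 CPM in control and 91.1 ± 3.80 CPM with DKK1 (SD, n = 3 each), a log2 difference of 0.05 (edgeR adjusted p = 0.825; with the block, 0.401). Whether the changes of Ifnar1 and Ifnar2 differ was not tested.

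Among the 10 receptor and signalling genes, Ifnar2 and Socs1 were called with the block, both higher (20%, beside 4.96% of all genes called higher). The unblocked edgeR fit called 0 of the 10, 3 having an unadjusted p under 0.05 (30%, beside 10.6%). Socs1, a feedback inhibitor of JAK kinases, rose to 6.41 ± 1.02 CPM with DKK1, from 4.66 ± 0.382 CPM in control (SD, n = 3 each), a log2 difference of 0.46 (edgeR with the block, adjusted p = 0.0185; without it, 0.270). The Socs1 call was lost without replicate 1 (adjusted p = 0.0551) or replicate 2 (adjusted p = 0.192) of both groups, and under DESeq2 with the block (adjusted p = 0.541). Jak1, the most abundant of the role, was at 296 ± 4.01 and 305 ± 3.84 CPM and did not pass the test in either fit.

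Among 11 genes of nucleic acid sensing, 10 had an estimate above 0, beside 49.8% of all tested genes, and 3 were called higher with the block (27.3%, beside 4.96%). Zbp1, a sensor of Z-form nucleic acid, stood at 1.06, 1.20 and 0.75 CPM in control and 2.23, 2.53 and 1.43 CPM in DKK1 libraries, without overlap. Its log2 fold change of 1.03 was the highest on the list (SE 0.21, edgeR with the block, adjusted p = 0.00757; without it, 0.204), and the call was lost without replicate 2 of both groups (adjusted p = 0.110) and under DESeq2 with the block (adjusted p = 0.271).
Ikbke, a kinase that activates IRF3 and IRF7, rose to 16.2 ± 1.07 CPM, from 12.6 ± 0.854 CPM in control (SD, n = 3 each), a log2 difference of 0.35 (edgeR with the block, adjusted p = 0.00812; without it, 0.120). DESeq2 with the block did not call Ikbke (adjusted p = 0.224). Exons of Ikbke overlap Gm28913 and Gm28914 on the other strand. Tmem173, which encodes the adaptor STING, rose from 51.8 ± 3.49 to 58.2 ± 2.16 CPM, a log2 difference of 0.17 (with the block, adjusted p = 0.0107; without it, 0.314), and the call was lost without replicate 2 (adjusted p = 0.158) or replicate 3 (adjusted p = 0.0557) of both groups, and under DESeq2 with the block (adjusted p = 0.356). Tbk1, the kinase paired with Ikbke in this step, was at 47.4 ± 2.24 and 50.8 ± 2.25 CPM and was not called.

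The ISG15 conjugation genes Uba7, Ube2l6, Herc6 and Trim25, which attach the ISG15 that USP18 removes, all had estimates above 0 and none was called in either fit. Over all tested genes 49.6% were above 0 without the block, and 9.42% were called with it. Without the block 2 of the 4 had an unadjusted p under 0.05 (50%, beside 10.6%). For 3 of the 4 every DKK1 library was above every control library, as for 9.4% of all tested genes. Ube2l6, the conjugating enzyme, was at 11.6 ± 1.04 CPM in control and 13.7 ± 0.780 CPM with DKK1 (SD, n = 3 each; edgeR with the block, adjusted p = 0.0788). Trim25 was at 30.3 ± 1.67 and 31.9 ± 2.17 CPM.

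The classical interferon targets Oas2, Oas3, Mx1 and Mx2 were nearly absent from these cells. Oas1b, Oas1g, Oas2 and Oas3 had too few counts to be tested, and no OAS gene that was tested was called; Oas2 had at most 5 and Oas3 at most 8 counts in any library. Mx1 had at most 2 counts and Mx2 at most 6. Oasl1, a relative of Oasl2, was at 0.699 ± 0.119 CPM in control and 1.08 ± 0.318 CPM with DKK1 (SD, n = 3 each).
Ifitm3 and Ifitm2, membrane proteins that hinder virus entry, were by contrast abundant. Ifitm3 rose to 166 ± 5.92 CPM with DKK1, against 151 ± 3.68 CPM in control (SD, n = 3 each), a log2 difference of 0.12 (edgeR with the block, adjusted p = 0.00581; without it, 0.249), a call lost without replicate 2 of both groups (adjusted p = 0.0576) and under DESeq2 with the block (adjusted p = 0.133). Ifitm2 was at 131 ± 3.68 and 141 ± 5.95 CPM, just outside the threshold with the block (adjusted p = 0.0502).

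Among 32 tested genes of the other effectors, 16 estimates were above 0 and 16 below, and 1 gene was called in each direction with the block (6.25% in either direction, beside 9.42% of all genes tested). The unblocked edgeR fit called 0 of the 32, 3 having an unadjusted p under 0.05 (9.38%, beside 10.6%). Slfn2, a regulator of immune cell quiescence, was at 5.63, 6.08 and 10.5 CPM in control and 10.5, 9.24 and 14.3 CPM in DKK1 libraries. Replicate 3 was the highest in each group and the groups overlapped, but DKK1 was higher in every pair, by an estimated 0.62 on the log2 scale (SE 0.10 in edgeR with the block, adjusted p = 0.00096; without it, 0.414). Samhd1, which breaks down the nucleotides that viruses need, fell with DKK1 to 142 ± 9.86 CPM, from 154 ± 10.1 CPM in control (SD, n = 3 each), a log2 difference of -0.12 (with the block, adjusted p = 0.00566; without it, 0.561), a call lost without replicate 2 of both groups (adjusted p = 0.0922) and under DESeq2 with the block (adjusted p = 0.139). In unblocked edgeR fits the Samhd1 estimate was -0.0670 without DKK1 replicate 1 and -0.175 without control replicate 1. Shisa5, among the most abundant of the role, was at 135 ± 2.72 and 137 ± 5.65 CPM.

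**Figure D4:**
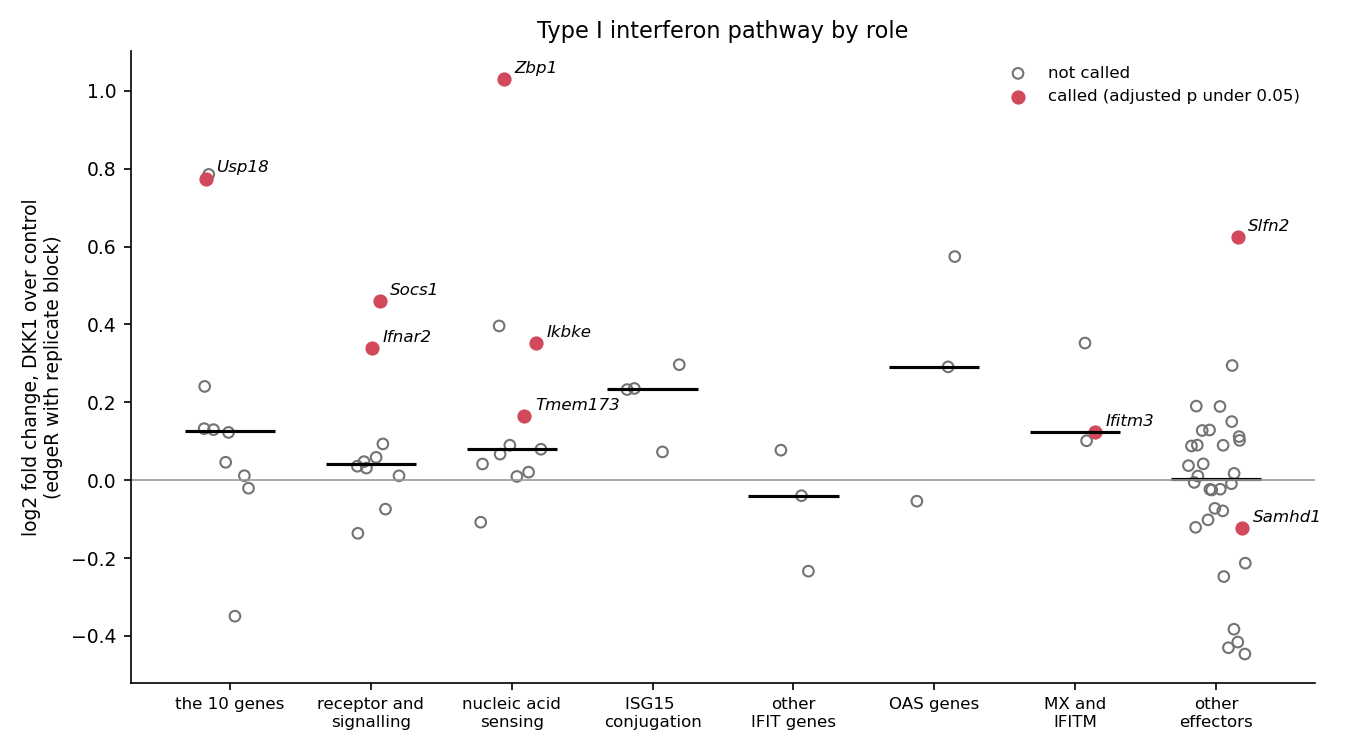
Log2 fold change, DKK1 over control, from edgeR with the replicate block (vertical axis) for the 10 genes and each role of the wider interferon list, 1 gene not drawn; filled red points, named, have an adjusted p under 0.05, open circles do not, and black bars are medians. Called genes are spread over 5 of the 8 columns drawn and run from -0.12 for Samhd1 to 1.03 for Zbp1.

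Macrophage and fibroblast markers moved with treatment in the same libraries. Without the block 0 of the 11 macrophage and leukocyte genes were called, 4 having an unadjusted p under 0.05 (36.4%, beside 10.6% of all genes). With the block 7 were called (63.6%, beside 9.42%), 3 higher and 4 lower. Marco went from 6.38 ± 3.64 to 20.1 ± 8.01 CPM and Itgam from 14.9 ± 4.94 to 31.5 ± 10.2 CPM, neither with overlap (SD, n = 3 each). The complement gene C1qa went the other way, from 8.32 ± 3.19 to 3.59 ± 2.80 CPM, and both C1qa and C1qb were lower with DKK1 in all 3 same-numbered pairs. Of the 9 fibroblast markers, 7 were called with the block (77.8%, beside 9.42%), 2 higher and 5 lower. Without it 0 were called, 3 having an unadjusted p under 0.05 there (33.3%, beside 10.6%). The 2 higher were Dcn, at 40.6 ± 7.92 and 61.8 ± 5.35 CPM, and Pdgfra (1.20-fold with the block). The 5 lower were Col1a1, Col1a2, Pdgfrb, Thy1 and Vim, from 0.915-fold for Vim to 0.931-fold for Col1a1 with the block. The part of either list in the values of Usp18, Ifnar2, Socs1, Zbp1, Ikbke, Tmem173, Ifitm3, Slfn2 and Samhd1 was not tested.

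Of the 8 wider-list genes called with the block, 6 were in the promoter table and 1 of them had the interferon element core (16.7%, beside 27.5% of the wider list and 3.46% of the whole table).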

How the data were processed

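RNA was sequenced from 3 control and 3 DKK1-treated samples of mouse lung fibroblasts. The deposited values are RSEM expected counts per gene, unscaled; STAR, RSEM and edgeR 4.2.1 and the builds GRCm38 and mm10 are named in the submitters' processing notes. The annotation release, strandedness and filters are not given in the sources used here. Of each library's values, 9.62% to 10.6% were not whole, to within 0.005 counts. Symbols were found for 45143 of 45706 identifiers (98.8%). Coordinates, lengths and overlaps came from GENCODE M21 (GRCm38), which holds 98.7% of the transcript identifiers.

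Testing used edgeR 4.0.16 under R 4.3.3 on the rounded expected counts (filterByExpr, minimum count 10, leaving 14635 genes; TMM; quasi-likelihood test, two-sided; Benjamini-Hochberg adjustment over all tested genes; called at an adjusted p under 0.05). CPM are per library total. Standard errors are approximate, from the F statistic. The fit was checked on simulated data. The fit without a replicate block came first, and the fit with the replicate number as a block second. The numbers, from the sample titles, paired the samples: deviations from group means correlated between same-numbered samples at 0.34, 0.33 and 0.49 across 14759 genes. What a number stands for is not given. The block lowered the biological coefficient of variation from 6.99% to 2.30%.

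The genes, lists and tests were chosen with earlier results of these data known. All 10 genes are named, and of the wider list the called genes, the ligands and receptors, the more abundant genes of each role and those sharing sequence with the 10. The genes of most similar profile are the 6 with the highest Pearson r. Herc6 and Uba7, and scarce OAS and MX genes, were named after their values were seen. Of the genes this rule selects, 1 is not reported here. The gene listed as Mb21d1 was matched as Cgas. Alternatives were DESeq2 1.42.0, limma-voom (limma 3.58.1), other scaling and filters, unrounded counts, summed IFIT genes and left-out libraries.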

Additional observations from a re-analysis of the deposited data

How the results depend on the processing

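The number of genes called over the whole table was 131 in the unblocked edgeR fit. It was 329 with no filter on low counts, 289 with DESeq2, 551 with DESeq2 and the replicate block, 1379 with the replicate block and 1374 with the block and library totals only. Leaving out 1 library gave 36 to 139 calls. In alternatives chosen after seeing the data, it was 6, 5 and 149 without replicates 1, 2 and 3 of both groups, and, with the block, 1312, 612 and 1059 without replicates 1, 2 and 3 of both groups. Of the 10 antiviral genes, 1 (Usp18) was called with the block, with the block and library totals, and with the block without replicate 1; 0 were called in each fit that left out 1 library. Of the wider list, 1 was called with no filter, with DESeq2 and without replicate 3 of both groups, 2 with DESeq2 and the block, 8 with the block and 10 with the block and library totals; with the block and without replicates 1, 2 and 3 the number was 9, 3 and 8, and leaving out 1 library gave 0 to 1. The median log2 fold change of the 10 genes ran from -0.0097 to 0.26 when 1 library was left out, and that of the wider list from 0.0294 to 0.0886; the wider median was 0.08 without replicate 3 of both groups, without and with the block (0.0752 and 0.0771). Near 0, signs turned without replicate 3 of both groups, without and with the block: Ifit1 to -0.0116 and -0.0168, Ifit2 to 0.00566 and 0.00373, Isg15 to -0.136 and -0.130, and Stat2 to -0.0294 and -0.0294. With 1 library left out, estimates ran from -0.0654 to 0.424 for Ifit1, -0.0849 to 0.0210 for Ifit2, -0.144 to 0.357 for Isg15, -0.0293 to 0.269 for Oasl2, -0.0505 to 0.0588 for Stat2, -0.53 to -0.16 for Ifit3, 0.07 to 0.21 for Bst2, 0.14 to 0.32 for Irf7, 0.67 to 0.84 for Rsad2 and 0.72 to 0.86 for Usp18. The cause of these shifts was not tested. The estimates of Rsad2, Usp18, Irf7, Bst2 and Ifit3 kept their sign in every alternative that tested them; Rsad2 was not tested under a minimum of 10 counts in every library, and DESeq2 without the block gave it no adjusted p. The block changed the call of Usp18 and of no other of the 10 genes. Counts of the scarcer genes were low, from Rsad2 at 7 to 18 counts per library to Usp18 at 24 to 71. The part of depth in the spread of their estimates was not tested.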
